A study of Mus musculus with 17 samples.

Results

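The sites described here are JUNB peaks that appeared in macrophages given interferon gamma (IFNg) and were missing when interleukin 4 (IL4) was given with it. They were chosen as the peaks of the JUNB list after 4 h of IFNg that shared no base with a JUNB peak of untreated cells and none with a JUNB peak after 4 h of IFNg+IL4. On chromosomes 1 to 19, X and Y, without peaks of the input library, 1597 of the 7428 JUNB IFNg peaks met this rule (21.5%), out of 144384 ChIP peaks of all factors. They are called IFNg-only JUNB sites below. Their JUNB values in these 3 lists chose them, so the sites were selected on JUNB listing and those values are given as a description only.

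The study mapped transcription factors by ChIP-seq, which sequences the DNA bound by an immunoprecipitated protein. The cells were C57BL/6 macrophages differentiated from bone marrow and taken at day 7. JUNB, CEBPB and IRF1 were each mapped in untreated cells, after 4 h of IFNg at 100 ng/ml, and after 4 h of IFNg at 100 ng/ml with IL4 at 10 ng/ml. STAT6 was mapped after 2 h of IL4 at 10 ng/ml, alone or with IFNg at 100 ng/ml. For MYC there were libraries of untreated cells and of 2 h and 4 h of IL4 at 10 ng/ml, each alone or with IFNg at 100 ng/ml. The labels name no allele other than wild type. Each group was 1 library, so no difference has a replicate check, no p-value was computed, and every comparison describes these libraries. JUNB after IL4 alone was not analysed here. In bulk chromatin, binding in fewer cells and weaker binding per cell cannot be told apart.

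JUNB is a leucine zipper protein that binds DNA as one partner of the dimeric factor AP-1, with FOS or BATF family proteins among its partners. AP-1 opens and marks enhancers of inflammatory genes in macrophages, often beside PU.1, C/EBP and interferon regulatory factors. IFNg drives the classical form of macrophage activation, with IRF1 among its factors, while IL4 drives the alternative form through STAT6.

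Promoter sequences from RefSeq (GRCm38.p6, the build of the files) show what lies under the IFNg-only sites found at gene starts. Each is a window from 250 bases before to 50 bases after a gene's start, printed 5′ to 3′ on the gene's strand. A summit, the highest point of a peak, fell in such a window for 29 sites and 30 promoters. Capitals mark the AP-1 motif TGANTCA and the core of the interferon-stimulated response element (ISRE), which is GAAA and GAAA with 2 bases between them, both searched on both strands. The first 4 promoters are all of the 30 that hold TGANTCA, where N was allowed to be any base. The match reads TGAATCA at Gm15133, TGAGTCA at Irgm1 and Il15ra, and TGACTCA at Cxcl9. Of these genes, Irgm1 encodes an immunity-related GTPase, Il15ra the alpha chain of the IL15 receptor, and Cxcl9 a chemokine for T cells.
Gm15133 promoter, chr7:104314781-104315080, plus strand: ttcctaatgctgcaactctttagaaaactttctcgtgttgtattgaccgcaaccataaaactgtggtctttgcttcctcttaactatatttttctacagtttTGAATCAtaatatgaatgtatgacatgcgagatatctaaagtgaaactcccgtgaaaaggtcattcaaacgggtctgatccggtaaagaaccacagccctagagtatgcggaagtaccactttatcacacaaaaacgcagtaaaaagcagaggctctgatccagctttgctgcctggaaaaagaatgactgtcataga
Irgm1 promoter, chr11:48871371-48871670, minus strand: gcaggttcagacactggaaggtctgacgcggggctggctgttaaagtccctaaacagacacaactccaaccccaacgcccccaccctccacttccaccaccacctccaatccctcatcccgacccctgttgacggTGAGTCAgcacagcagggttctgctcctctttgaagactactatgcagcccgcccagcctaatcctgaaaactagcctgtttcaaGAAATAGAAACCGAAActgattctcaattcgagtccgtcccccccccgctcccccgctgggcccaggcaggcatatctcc
Il15ra promoter, chr2:11705462-11705761, plus strand: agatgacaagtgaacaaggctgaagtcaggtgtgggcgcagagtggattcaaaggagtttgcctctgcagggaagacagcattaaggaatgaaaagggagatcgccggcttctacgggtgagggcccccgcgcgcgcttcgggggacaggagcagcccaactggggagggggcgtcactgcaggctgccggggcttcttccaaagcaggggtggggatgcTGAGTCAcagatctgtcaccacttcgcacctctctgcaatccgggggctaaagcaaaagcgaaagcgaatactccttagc
Cxcl9 promoter, chr5:92328030-92328329, minus strand: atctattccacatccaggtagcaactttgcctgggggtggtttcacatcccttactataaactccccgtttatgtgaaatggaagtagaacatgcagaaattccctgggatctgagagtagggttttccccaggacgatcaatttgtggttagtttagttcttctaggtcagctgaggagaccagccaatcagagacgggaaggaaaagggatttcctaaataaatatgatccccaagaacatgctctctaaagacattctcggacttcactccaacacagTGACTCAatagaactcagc
The other 2 hold the ISRE core within 9 bp of the JUNB summit and no TGANTCA, and are shown as examples of an ISRE core without an AP-1 motif. An IRF1 peak with IFNg overlapped the site at Parp11, and no IRF1 peak that at Fcgr4. Fcgr4 encodes an activating Fc receptor, and Parp11 a mono-ADP-ribosyltransferase.
Fcgr4 promoter, chr1:171018676-171018975, plus strand: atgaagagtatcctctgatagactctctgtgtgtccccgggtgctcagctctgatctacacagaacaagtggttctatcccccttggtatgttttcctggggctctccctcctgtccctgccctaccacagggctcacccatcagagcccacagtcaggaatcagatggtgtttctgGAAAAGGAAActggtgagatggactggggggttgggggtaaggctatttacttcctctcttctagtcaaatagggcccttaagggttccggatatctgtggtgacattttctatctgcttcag
Parp11 promoter, chr6:127446590-127446889, plus strand: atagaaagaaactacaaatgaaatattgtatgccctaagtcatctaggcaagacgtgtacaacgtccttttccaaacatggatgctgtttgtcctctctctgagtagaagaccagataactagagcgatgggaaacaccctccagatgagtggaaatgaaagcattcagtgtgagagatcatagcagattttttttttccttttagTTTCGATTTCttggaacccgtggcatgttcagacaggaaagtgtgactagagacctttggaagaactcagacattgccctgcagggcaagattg

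The centre of TGANTCA lay 24 bp from the JUNB summit at Gm15133, 31 bp at Irgm1, 22 bp at Il15ra and 102 bp at Cxcl9. In the Irgm1 promoter, 2 overlapping ISRE cores lay 56 and 62 bp from the summit. The ISRE core was 5 bp from the summit at Fcgr4 and 9 bp at Parp11.

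Over all 30 promoters with a summit of an IFNg-only site, the ISRE core was present in 10, or 33.3% (95% exact Clopper-Pearson interval 17.3 to 52.8%). It was present in 3.44% of all 32851 promoters of the table. With a JUNB summit listed in all 3 states it was in 10 of 84 promoters, 11.9% (5.86 to 20.8%), which overlaps the interval of the 30. TGANTCA was present in 4 of the 30, 13.3% (3.76 to 30.7%), against 7.81% of all promoters. At the JUNB sites of all 3 states it was present in 47 of 84 promoters, 56.0% (44.7 to 66.8%), and the 2 intervals do not overlap. The sites of all 3 states were stronger JUNB peaks, and strength was not matched in these promoter shares. At kept sites TGANTCA was in 2 of 13 promoters (1.92 to 45.4%) and the ISRE core in 1 of 13 (0.195 to 36.0%), too few to tell apart from either. At sites listed in untreated cells and with IFNg but not with IFNg+IL4, TGANTCA was in 15 of 47 (19.1 to 47.1%), which overlaps the interval of the IFNg-only sites. The ISRE core was in 2 of these 47 (0.520 to 14.5%). The C/EBP motif TTGCNNAA was in 11 of the 30, 36.7% (19.9 to 56.1%), against 10.8% of all promoters. The ETS core GAGGAAG was in 11 of the 30 against 13.6%. At sites of all 3 states the C/EBP motif was in 14.3% of promoters (7.61 to 23.6%, which overlaps the interval of the 30) and the ETS core in 31.0%. At sites of untreated cells and IFNg but not IFNg+IL4 they were in 27.7 and 34.0%. At kept sites each was in 2 of 13. The STAT6 palindrome, TTC and GAA with 4 bases between them, was in 0 of the 30 (exact upper limit 11.6%). Its share of all promoters, 6.95%, lies below that limit. Of the other motifs searched, the RUNX motif TGTGGT was in 8 of the 30 (16.8% of all), the E-box CACGTG in 4 (7.15%) and the NF-kB motif GGGANTTCC in 1 (1.68%). At sites of all 3 states the RUNX motif was in 20.2% and the E-box in 11.9%. At sites of untreated cells and IFNg but not IFNg+IL4 they were in 25.5 and 8.51%, and at kept sites in 4 and 0 of 13. The CRE-like motif TGACGTCA (1.79% of all) and the AP-1 and IRF composite elements in both orders (0.119 and 0.125%) were in 0 of the 30. The AP-1 motif is part of the composite elements, and other motifs may overlap too. The windows of Ptgs2 and Ptgs2os overlap and share a site, and both are counted for the C/EBP motif, the E-box and the RUNX motif. A peak of IRF1 with IFNg overlapped the JUNB peak at 7 of the 10 promoters with an ISRE core and at 2 of the 20 without one. The intervals here and below cover counting error only. A match is a description of letters in these windows, and windows outside promoters were not searched.

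The IFNg-only sites were weak peaks of their list. Peak strength is given as the −log10 p and fold enrichment over input that the authors' peak caller assigned, which rank peaks within 1 list only. The median −log10 p of the 1597 sites was 12.0, with a range from 5.29 to 57.4, against 17.2 for the whole list. Their median fold enrichment was 6.29 and their median width 190 bp, against 7.69 and 246 bp. The strongest one ranked 646 of 7428. With the list divided by −log10 p into 5 equally large strength classes, it held 630 of the sites in its weakest class (42.4% of that class) and 20 in its strongest (1.35%).

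**Figure D1:**
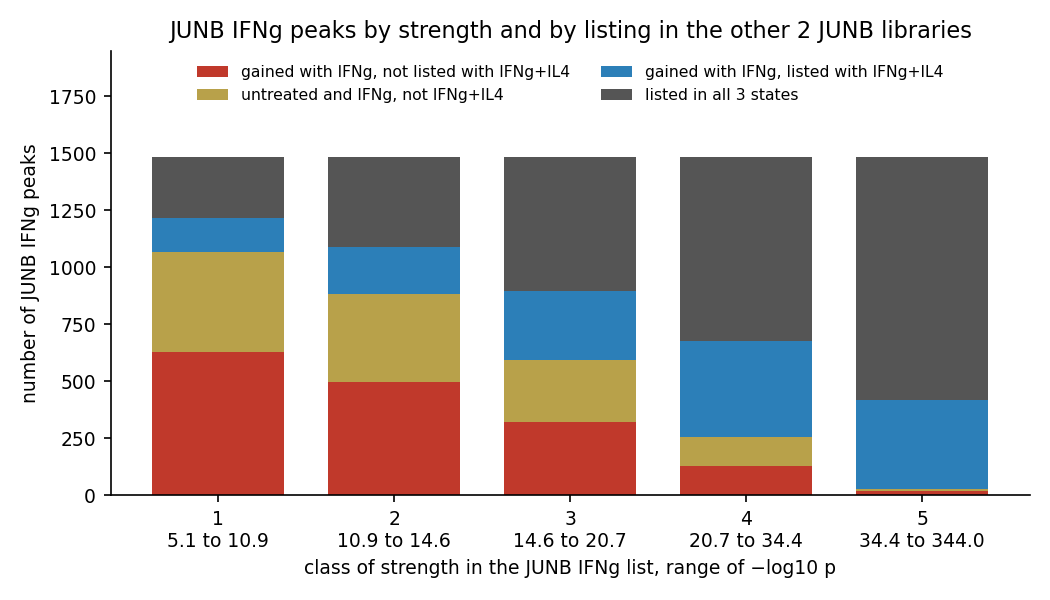
Number of JUNB IFNg peaks in 5 equally large classes of −log10 p, split by listing in the untreated and IFNg+IL4 lists. The IFNg-only sites (red) number 630 in the weakest class and 20 in the strongest.

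The pileup, the height of the summit in fragments at the depth of the input library, could be worked out from the authors' columns for JUNB, CEBPB and STAT6. The JUNB libraries were 1.55 (untreated), 1.01 (IFNg) and 1.23 (IFNg+IL4) times as deep as the input. The IFNg-only sites had a median pileup of 19.9 over an expected background of 2. JUNB peaks gained with IFNg and also listed with IFNg+IL4, called kept sites below (1472 peaks), had a median of 28.8. The 3130 JUNB sites of all 3 states had 34.7 in the same library, beside 22.0 in untreated cells and 28.6 with IFNg+IL4. At these shared sites the IFNg pileup was thus higher, with a median ratio of 1.49 to untreated and 1.22 to IFNg+IL4.

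A site that is not listed may still have been bound below the threshold of its list. A pileup of 11 at the median IFNg-only site would have sufficed for listing with IFNg+IL4, at the lowest −log10 p of that list. The IFNg pileup exceeded this needed height by a median of 1.71 times, by over 2 times at 416 sites and by over 3 times at 58. These ratios are the smallest differences that the lists allow, if the threshold on p alone decided listing. The largest was 5.71, at a site inside Apaf1. Divided by the 1.22 and 1.49 of the shared sites, the pileup of 1494 of the 1597 sites still reached the needed height in both other libraries. Those 2 ratios are medians over sites that had to be listed in all 3 libraries, and kept sites gave 1.28 to IFNg+IL4. Neither the spread of the ratios nor counting error was allowed for. The count therefore cannot tell whether the IFNg-only sites were unbound in the other states.

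Near the edge of the rule, 10 of the sites had a JUNB peak of another state at most 100 bp away (median −log10 p 12.1). Just outside it, 5 peaks shared fewer than 20 bp with one (median −log10 p 8.41). A JUNB peak of another state lay within 500 bp of 83 sites.

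None of the 10 strongest IFNg-only sites was within 20 kb of an IFNg response gene of the list used below, and no IRF1, STAT6 or MYC peak overlapped any of them. The strongest was 0.399 kb from an annotated start and 25.2 kb from Slc25a54, the gene of a mitochondrial carrier, at chr3:109055035-109055526. It had a fold enrichment of 18.5, a −log10 p of 57.4 and a pileup of 54.6, and 11 would have been enough for listing with IFNg+IL4. A site inside Apaf1, whose product forms the apoptosome (chr10:91076754-91077103), had the highest fold of these 10, 22.0, and a pileup of 45.7 where 8 would have been enough. A site inside Nemf, a gene of ribosome quality control, followed with a pileup of 44.7. Others were 0.482 kb from Aasdh (pileup 54.6), 15.5 kb from Rmnd5a, a subunit of a ubiquitin ligase (70.5), and 43.7 kb from Fam174a (35.7). Further sites were 0.092 kb from Tlr12, a Toll-like receptor (36.7), inside Klre1, a lectin receptor of natural killer cells (38.7), and inside Bbs2, a ciliary trafficking gene (40.7). CEBPB with IFNg had a peak at 5 of the 10, among them the sites of Slc25a54, Aasdh, Rmnd5a and Bbs2. Of these 5 only the Bbs2 site was also listed for CEBPB with IFNg+IL4, and its CEBPB pileup was 107 with IFNg and 25.1 with IFNg+IL4. The next strongest site with CEBPB in IFNg only lay inside Hdac9, a histone deacetylase gene, with a JUNB pileup of 43.7 and a CEBPB pileup of 16.5.

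CEBPB was the factor most often found with JUNB at the IFNg-only sites. A CEBPB IFNg peak overlapped 678 of them by at least 1 bp, 42.5% (40.0 to 44.9%), where the share over all JUNB IFNg peaks was 58.1%. The same peaks moved by 10 kb overlapped CEBPB IFNg peaks in 1.88% of cases. Kept sites stood at 42.8% and sites of all 3 states at 71.1% (69.4 to 72.6%). Since both of these groups were stronger, their shares were also averaged over the 5 classes with the class make-up of the IFNg-only sites, which gave 38.2% for kept sites and 61.2% for sites of all 3 states. With an overlap of 50% of both peaks the share at the IFNg-only sites was 25.3%. The difference of 4.25 percentage points from kept sites changed sign under that rule (-0.850), so no order between these is read from it.

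In the other CEBPB states the counts were lower. CEBPB in untreated cells was listed at 153 IFNg-only sites, 9.58% (all JUNB IFNg peaks 18.7%), more often than at kept sites, 4.08% (3.12 to 5.22%), and less often than at sites of all 3 states, 25.8%. With IFNg+IL4, CEBPB was listed at 238 sites, 14.9% (all JUNB IFNg peaks 27.8%), beside 13.9% at kept sites. By combination, 424 sites had CEBPB with IFNg alone, 135 had it in all 3 states, 101 with IFNg and IFNg+IL4, and 917 in none.

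**Figure D2:**
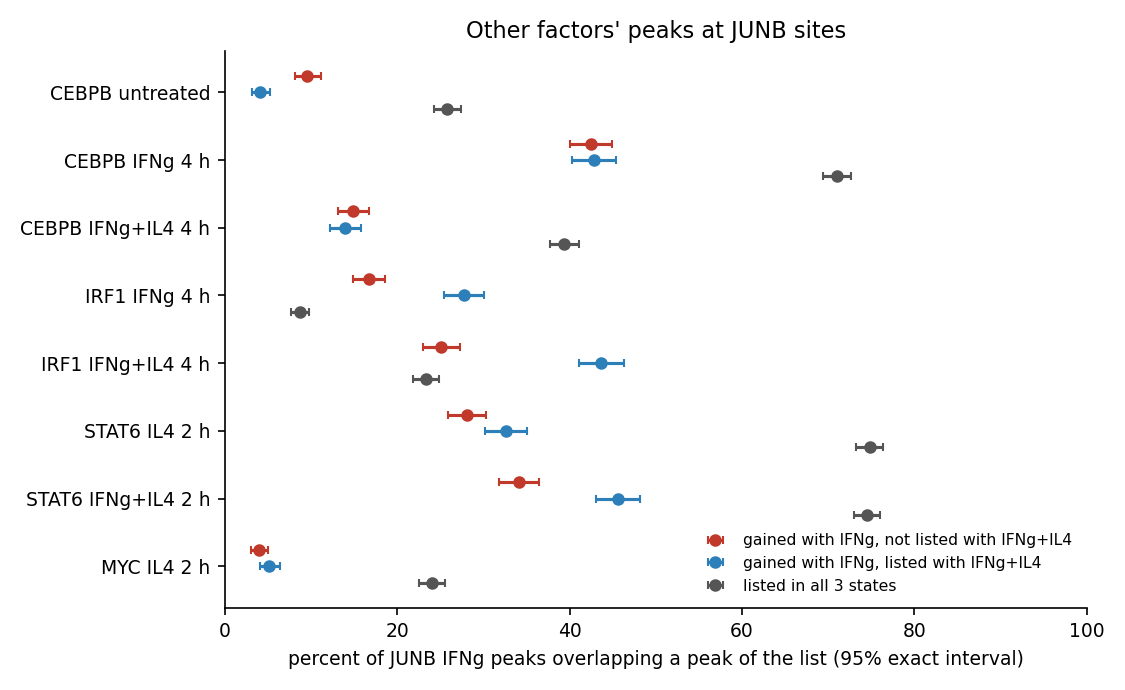
Percent of JUNB IFNg peaks overlapping a peak of each other list by at least 1 bp, with exact 95% intervals, for the 1597 IFNg-only sites (red), the 1472 kept sites (blue) and the 3130 sites of all 3 states (grey). For IRF1 with IFNg the IFNg-only sites (16.7%) lie between kept sites (27.7%) and sites of all 3 states (8.69%).

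Most CEBPB IFNg peaks at the IFNg-only sites were not listed once IL4 was added, as was true of all CEBPB IFNg peaks together. Of 670 CEBPB IFNg peaks at these sites and at no other kind of JUNB site, 236 were listed with IFNg+IL4, 35.2% (31.6 to 39.0%), where the share over all 21499 CEBPB IFNg peaks was 28.2%. At kept sites it was 32.3%, but those CEBPB peaks were weaker, with a median −log10 p of 22.5 against 34.6. With the CEBPB class make-up of the IFNg-only sites, the share was 42.6% at kept sites and 52.7% at sites of all 3 states. It was 41.3% at sites of untreated cells and IFNg but not IFNg+IL4. Where no JUNB IFNg peak lay it was 37.1%, and over all CEBPB IFNg peaks 39.1%. The difference from kept sites of like CEBPB strength (IFNg-only minus kept) was -7.40 percentage points, and it was between -5.59 and -8.11 under the 7 alternatives run. The share itself fell to 12.1% when the overlap had to cover 50% of both peaks. In class 4 of CEBPB strength, next to the strongest, 46 of 157 peaks (29.3%) were listed with IFNg+IL4 at IFNg-only sites. The counts were 60 of 141 (42.6%) at kept sites and 314 of 481 (65.3%) at sites of all 3 states. Where no JUNB IFNg peak lay it was 1069 of 3373 (31.7%), close to the IFNg-only share, and over all peaks of the class 36.1%.

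The height of CEBPB was also lower with IL4, at these sites and over all CEBPB IFNg peaks listed in both states. From the other side, 153 of the 670 CEBPB IFNg peaks were also listed in untreated cells, 22.8% (all CEBPB IFNg peaks 25.6%), beside 9.85% at kept sites. Of like CEBPB strength, the share was 15.5% at kept sites and 34.0% at sites of all 3 states. It was then 37.6% at sites of untreated cells and IFNg but not IFNg+IL4. Where no JUNB IFNg peak lay it was also 37.6%, and over all CEBPB IFNg peaks 36.0%, above the 22.8% of the IFNg-only sites. For the 235 CEBPB IFNg peaks at IFNg-only sites with pileups in both libraries, the median was 85.6 with IFNg and 25.9 with IFNg+IL4. Their median ratio was 0.333 (middle 80% 0.236 to 0.474). None of these 235 was higher with IFNg+IL4. The median ratio was 0.402 at kept sites, 0.414 at sites of all 3 states and 0.360 at CEBPB peaks with no JUNB IFNg peak. Over all 6029 such CEBPB peaks it was 0.369, and 100 of them were higher with IFNg+IL4. The depths of the CEBPB libraries, 1.33 and 1.31 times the input, were close to one another.

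**Figure D3:**
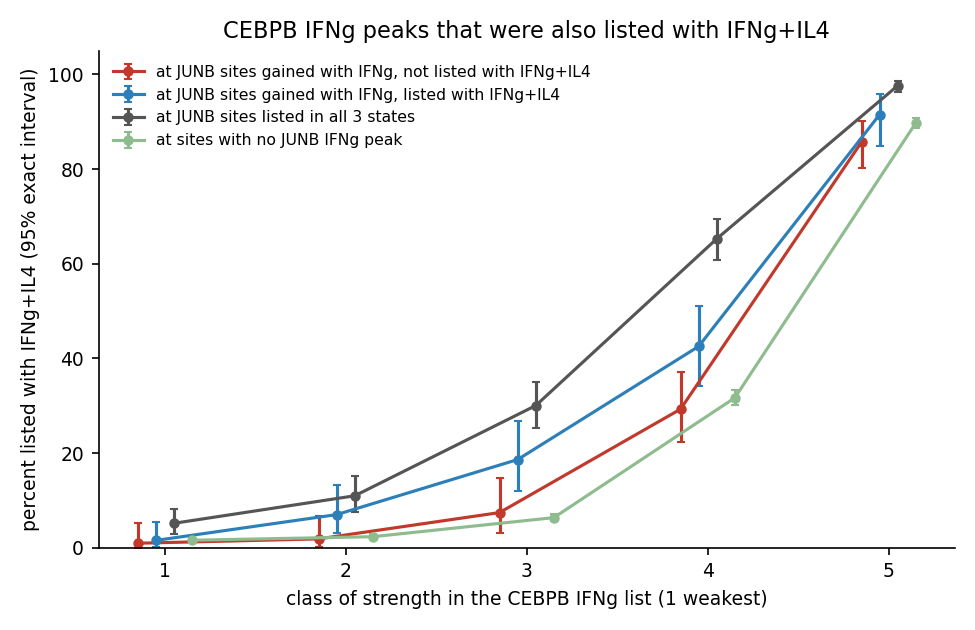
Percent of CEBPB IFNg peaks that were also listed with IFNg+IL4, in 5 equally large classes of CEBPB −log10 p, with exact 95% intervals. In class 4 the share is 29.3% at IFNg-only JUNB sites (red), 42.6% at kept sites (blue) and 65.3% at JUNB sites of all 3 states (grey). Where no JUNB IFNg peak lay (green) it is 31.7%.

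IRF1 peaks found with IFNg at these sites were nearly all listed with IFNg+IL4 as well, as were IRF1 peaks elsewhere. An IRF1 IFNg peak overlapped 267 of the IFNg-only sites, 16.7% (14.9 to 18.6%), where the share over all JUNB IFNg peaks was 13.3%. Of these 267 sites, 257 also had an IRF1 peak with IFNg+IL4. Counted from the IRF1 side, 256 of 266 IRF1 IFNg peaks at these sites were listed with IFNg+IL4, 96.2% (93.2 to 98.2%), beside 95.2% of all IRF1 IFNg peaks. Conversely, 262 of 396 IRF1 IFNg+IL4 peaks at the IFNg-only sites were listed with IFNg, 66.2% (61.3 to 70.8%). The share over all IRF1 IFNg+IL4 peaks was 47.6%, or 55.5% of like IRF1 strength. At kept sites it was 62.7%, or 59.8% of like IRF1 strength. A further 144 sites had IRF1 with IFNg+IL4 only, which brought that list to 401 sites, 25.1% (all JUNB IFNg peaks 25.4%), or 15.3% with an overlap of 50% of both peaks. IRF1 in untreated cells was listed at 1 site (all JUNB IFNg peaks 0.148%), the start of Gm12250. The IRF1 library with IFNg gave 4189 peaks and the one with IFNg+IL4 8226, and their depths were not recovered here.

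IRF1 was found less often at the IFNg-only sites than at kept sites. At kept sites the share with an IRF1 IFNg peak was 27.7%, and 24.0% with the class make-up of the IFNg-only sites. At sites of all 3 states it was 8.69%, and 5.72% with that make-up. For IRF1 with IFNg+IL4 kept sites stood at 43.7%, or 40.3% of like strength, a difference (IFNg-only minus kept) of -15.2 percentage points. In the weakest class the share with IRF1 IFNg was 17.9% in each group, and in the third class they stood at 19.4 and 30.0%. With an overlap of 50% of both peaks, the difference for IRF1 IFNg was -4.14 instead of -7.29 percentage points, and for IRF1 with IFNg+IL4 it was -10.00.

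**Figure D4:**
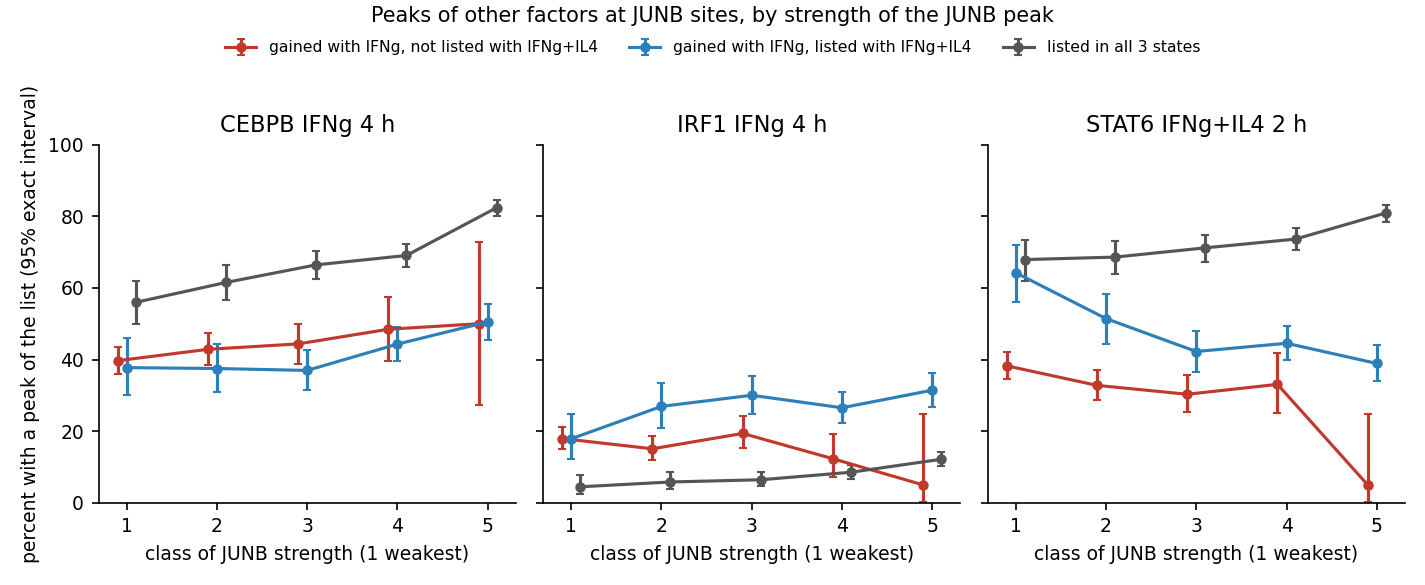
Percent of JUNB IFNg peaks with a CEBPB IFNg, IRF1 IFNg or STAT6 IFNg+IL4 peak, in the 5 classes of JUNB strength, with exact 95% intervals. With STAT6 the IFNg-only sites (red) lie below kept sites (blue) in each class, from 38.3 against 64.2% in the weakest class, while the strongest class holds 20 red sites only.

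The strongest IFNg-only sites with IRF1 were spread over several chromosomes. One lay 21.9 kb from Pcbp1, an RNA-binding protein gene, with a JUNB pileup of 46.7, and IRF1 was listed there with IFNg only. The next lay 211 kb from Triqk, with a JUNB pileup of 37.7, CEBPB with IFNg only, and IRF1 and STAT6 in both of their cytokine states. Sites inside Mapk12, a stress kinase gene, 209 kb from Eea1, an endosomal tether, and inside Blvrb, biliverdin reductase B, followed with pileups of 33.8, 32.8 and 41.7. All 3 had IRF1 with IFNg and with IFNg+IL4.

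STAT6 acts downstream of the IL4 receptor, and it was listed at fewer of the IFNg-only sites than of the other JUNB sites. A STAT6 peak after 2 h of IFNg+IL4 overlapped 545 IFNg-only sites, 34.1% (31.8 to 36.5%), where the share over all JUNB IFNg peaks was 56.5%. After 2 h of IL4 alone it was 448 sites, 28.1% (all JUNB IFNg peaks 53.9%). Kept sites stood at 45.6 and 32.6%, and sites of all 3 states at 74.5 and 74.8%. The difference from kept sites of like JUNB strength (IFNg-only minus kept) was -19.8 percentage points for STAT6 with IFNg+IL4 and -14.5 with IL4. Both differences shrank when overlaps were defined more strictly, to -12.4 and -9.07 for summits within 100 bp and to -3.89 and -2.62 for 50% of both peaks. The approximate (normal) 95% counting intervals of the last 2 ran from -7.01 to -0.774 and from -5.41 to 0.181. Their widths ignore the class weighting of the kept share, so they cannot tell whether either difference reaches 0. The median width of kept sites was 277 bp, against 190 bp. Its part in the result was not tested.

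Of 443 STAT6 IL4 peaks at IFNg-only sites, 372 were listed with IFNg+IL4, 84.0% (80.2 to 87.3%), where the share over all STAT6 IL4 peaks was 68.7%. It was 89.0% at kept sites and 91.4% at sites of all 3 states, where the STAT6 peaks were stronger. Of like STAT6 strength it was 87.8 and 86.1%, and 70.2% over all. At sites of untreated cells and IFNg but not IFNg+IL4 it was 81.2%, or 78.3% of like strength. Of 536 STAT6 IFNg+IL4 peaks there, 367 were listed with IL4 alone, 68.5% (64.3 to 72.4%), where the share over all was 80.3%. At kept sites the latter was 62.7% and at sites of all 3 states 92.0%, or 55.5 and 87.3% of like STAT6 strength. At sites of untreated cells and IFNg but not IFNg+IL4 it was 92.2%, or 91.5% of like strength. Pileups in both states could be compared for 370 STAT6 IL4 peaks at IFNg-only sites. The median STAT6 pileup was 30.0 with IL4 and 32.0 with IFNg+IL4. The median of the ratios of single peaks was 0.938, with 164 of 370 peaks higher with IFNg+IL4. The median ratio was 1.08 at kept sites and 0.834 over all STAT6 IL4 peaks. The strongest IFNg-only sites with STAT6 in both states lay 37.8 kb from Tnfsf8, the gene of CD30 ligand (JUNB pileup 42.7), near Triqk, inside Hps3, an organelle biogenesis gene (41.7), inside Syne1, a nuclear envelope gene (29.8), and inside Mapk12. At Hps3 the STAT6 pileup was 83.7 with IL4 and 52.9 with IFNg+IL4, and at Mapk12 it was 22.9 and 38.0.

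Sites with IRF1 after IFNg more often had STAT6 after IFNg+IL4, among the IFNg-only sites and among the other JUNB sites alike. Of the 267 IFNg-only sites with an IRF1 IFNg peak, 129 had STAT6 with IFNg+IL4, 48.3% (42.2 to 54.5%), against 416 of 1330 without it, 31.3% (28.8 to 33.8%). With STAT6 after IL4 alone the shares were 27.3 and 28.2%, with overlapping intervals (22.1 to 33.1 and 25.8 to 30.7%). At kept sites the shares with and without IRF1 were 58.1 and 40.8% for STAT6 with IFNg+IL4 and 29.4 and 33.8% with IL4. At sites of all 3 states they were 87.1 and 73.3%, and 75.0 and 74.8%. CEBPB with IFNg was at 138 of the 267, 51.7%, and at 40.6% of the other 1330. STAT6 with IFNg+IL4 and CEBPB with IFNg also occurred together, with CEBPB at 61.1% of the 545 STAT6 sites and at 32.8% of the rest, beside 57.1 and 30.8% at kept sites.

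MYC was rare at the IFNg-only sites. With IL4 for 2 h it was listed at 63 of them, 3.94% (3.04 to 5.02%), where the share over all JUNB IFNg peaks was 14.9%. Kept sites stood at 5.16% and sites of all 3 states at 24.1%. At 4 h of IL4 it was 38 sites, 2.38% (all JUNB IFNg peaks 9.71%). The IFNg+IL4 lists of MYC gave 17 sites at 2 h (1.06%, all JUNB IFNg peaks 2.42%) and 21 at 4 h (1.31%, all 3.61%). MYC in untreated cells was listed at 0 of 1597 sites, which allows a share of up to 0.188% by a limit of 3 counts and 0.231% by the exact interval (all JUNB IFNg peaks 0.242%). With an overlap of 50% of both peaks, the share for 2 h of IL4 was 2.00%.

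No peak of CEBPB, IRF1, STAT6 or MYC in any state overlapped 541 of the IFNg-only sites, 33.9% (31.6 to 36.3%). The share over all JUNB IFNg peaks was 17.6%, at kept sites 23.6% and at sites of all 3 states 7.41%. CEBPB or IRF1 with IFNg was present at 807 sites, 50.5%, and both at 138, 8.64%. At kept sites of like strength the share with both was 11.9%.

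The IFNg-only sites were mostly distal. A start of an annotated gene lay within 1 kb of the summit for 81 of 1561 sites on chromosomes with promoter entries, 5.19% (4.14 to 6.41%), beside 6.26% of all JUNB IFNg peaks. The median distance to a start was 21.1 kb. The summit lay inside a protein-coding gene at 880 sites, 55.1% (all JUNB IFNg peaks 51.2%), and 717 were outside. The share of a chromosome's JUNB IFNg peaks that were IFNg-only ran from 17.6% on chromosome 17 to 27.3% on X. Most stood alone, with 1342 more than 20 kb from the next IFNg-only site. There were 104 pairs, 13 groups of 3 and 2 groups of 4. A kept site lay within 20 kb of 515 IFNg-only sites, 32.2%, and the median distance to one was 53.4 kb.

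IFNg response genes often had such a site nearby. A summit within 20 kb of the gene's span was found for 16 of 36 genes of an IFNg response list, 44.4% (27.9 to 61.9%), and for 1420 of all 21887 protein-coding genes, 6.49%. Other JUNB peaks were also near these genes more often than near all genes. Kept sites were near 12 of the 36 (all genes 5.94%), and any JUNB IFNg peak near 25 (all genes 20.7%). Counted as peaks, 23 of the 55 JUNB IFNg peaks near these genes were IFNg-only, 41.8% (28.7 to 55.9%), where peaks of the same strength classes gave 24.4%. A further 16 were kept sites (29.1%, all JUNB IFNg peaks 19.8%), 12 were listed in all 3 states and 4 in untreated cells and IFNg. With windows of 5 and 50 kb the share was 35.3% (19.7 to 53.5%) and 35.1% (24.5 to 46.8%), and 9 and 19 genes had a site. For sites with a −log10 q of 5 or more it was 32.6% (19.1 to 48.5%), with 12 genes. The intervals at 5 kb and at this −log10 q hold 24.4%. That like-strength share belongs to the 20 kb window without the −log10 q limit, and none was computed for the other settings. IRF1 with IFNg was at 14 of the 23 sites (60.9%), STAT6 with IFNg+IL4 at 19 (82.6%), STAT6 with IL4 at 13 and CEBPB with IFNg at 11.

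A group of 4 sites lay at Cxcl9 and Cxcl10. Both genes encode chemokines that attract T cells through CXCR3, and they lie inside or beside the longer gene Art3 on chromosome 5. The 4 summits stood 20.7, 16.4 and 2.93 kb on the side of Cxcl9 from the Cxcl10 start and 4.67 kb on its other side. Their JUNB pileups were 11.9, 23.8, 22.8 and 20.8. The site 2.93 kb away had 2.54 times the height needed for listing with IFNg+IL4, and the other 3 had from 1.08 times to less than 1.5 times. The peak at the Cxcl10 start itself was also listed in untreated cells (−log10 p 4.79, below the lowest value of the IFNg list) and not with IFNg+IL4. STAT6 with IFNg+IL4 had a peak at each of the 4 sites, with pileups of 19.5, 68.7, 33.4 and 77.9, and with IL4 alone only at the site 16.4 kb away (19.4). CEBPB with IFNg was at all but the site 2.93 kb away, with pileups of 11.3, 59.3 and 56.3. CEBPB with IFNg+IL4 was at the site 4.67 kb away, with 15.2, as was IRF1 with IFNg and with IFNg+IL4.

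**Figure D5:**
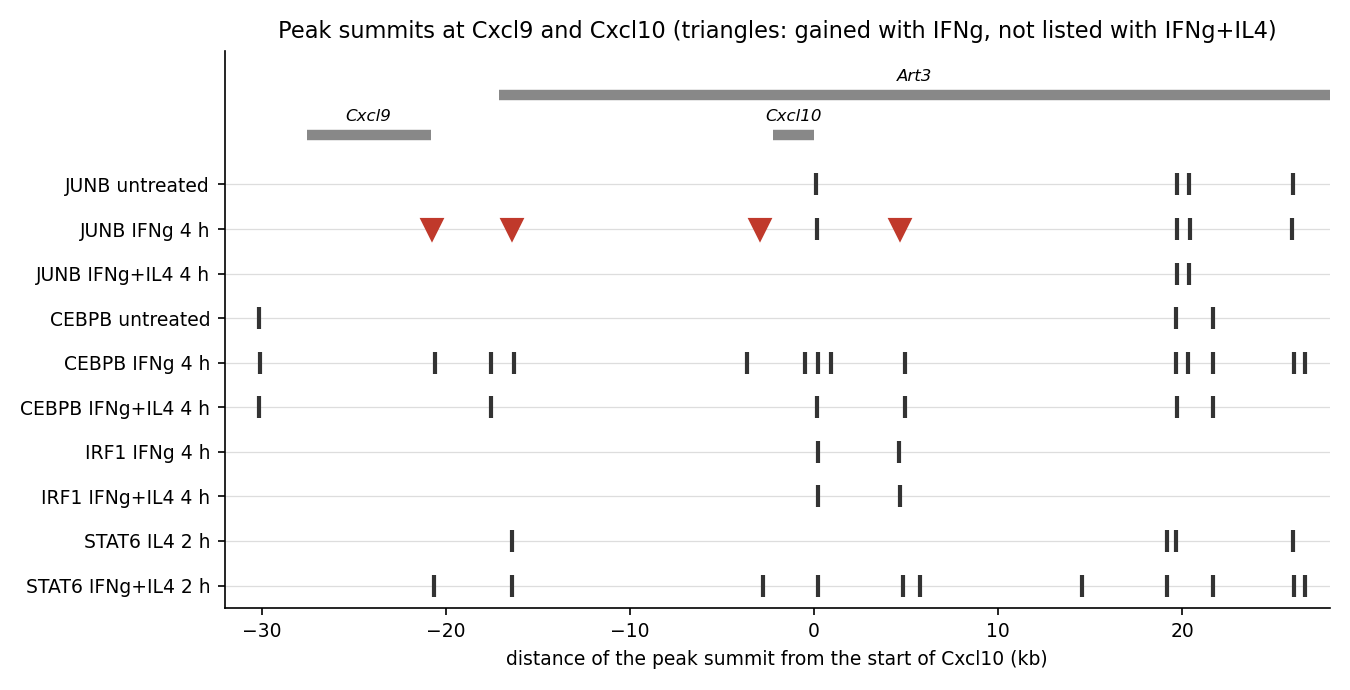
Peak summits of 10 lists around Cxcl9 and Cxcl10, by distance from the Cxcl10 start in kb, with gene spans as bars at the top. Triangles mark the 4 IFNg-only JUNB sites, and each has a STAT6 IFNg+IL4 peak within its span in the bottom row.

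The sites at the other IFNg response genes had JUNB pileups from 11.9 to 37.7. Rsad2, which encodes the antiviral protein viperin, had 2, with JUNB pileups of 26.8 and 23.8. The first lay 3.88 kb from Rsad2 and carried a tall CEBPB peak, with a CEBPB pileup of 25.4 in untreated cells, 172 with IFNg and 55.6 with IFNg+IL4. The second was 0.057 kb from the start of Cmpk2, a nucleotide kinase gene, with IRF1 ranked 64 of 4189 with IFNg. Near Ccl5, a chemokine gene, there were 3, of which the strongest, 0.157 kb from the gene, had a JUNB pileup of 37.7 and no peak of another factor. At Irgm1, a summit 81 bp before the start had a pileup of 23.8, IRF1 in both IFNg states and STAT6 in both of its states. The site inside the start region of Gm12250, 15.7 kb from the GTPase gene Igtp, had a JUNB pileup of 12.9 and an IRF1 peak ranked 29 of 4189 with IFNg and 11 of 8226 with IFNg+IL4.

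Further sites lay near Il12b, the p40 chain of IL12 (JUNB pileup 20.8), and Nos2, inducible nitric oxide synthase (16.9), both without a peak of another factor. The single sites of Irf1 (14.9, also without one), of Ciita, the activator of MHC class II genes (18.9), and of Nlrc5, its class I counterpart (12.9), were lower. Ifit2 had 2 sites (15.9 and 19.9), and the second was also near Ifit3, both genes of interferon-induced RNA-binding proteins. The GTPase gene Gbp3 had 2 as well (13.9 and 22.8), the second 17.5 kb from it and 4.15 kb from Gbp2b. Cd274, the gene of PD-L1, had 1 with a pileup of 11.9. For the sites of Ciita, Nlrc5, Ifit2 and Gbp3, IRF1 was listed with IFNg and IFNg+IL4. No JUNB peak of the IFNg+IL4 list lay within 20 kb of the gene at 6 of the 16 genes: Il12b, Irf1, Igtp, Rsad2, Cxcl9 and Nlrc5. Over all genes near an IFNg-only site, 749 of 1420 had no such peak. These 6 were singled out after their values were seen.

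Genes of cytokine receptors and their signalling also had several. The list held 10 of 21 genes with an IFNg-only site, and 15 of 34 JUNB IFNg peaks near them were IFNg-only, 44.1% (27.2 to 62.1%), where peaks of like strength gave 33.7%. Il15ra had 3, with JUNB pileups of 18.9, 21.8 and 13.9, and no JUNB peak in the other states within 20 kb. The last of them lay 13.8 kb from Il15ra, inside Il2ra. Il10ra, a chain of the IL10 receptor, had 2 neighbouring ones 7.30 and 7.56 kb away, inside BC049352 (26.8 and 24.8). Il13ra1, which pairs with the IL4 receptor chain, had 2 (21.8 and 18.9). Socs1, an inhibitor of JAK kinases that was also on the IFNg response list, had 2 of 13.9 each, both with IRF1 and STAT6 in both of their cytokine states. Socs2, Socs3, Jak1, Jak2, Pias1 and Ptpn1 had 1 each, with pileups from 11.9 (Jak1) to 19.9 (Socs2 and Ptpn1).

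Of 30 inflammatory genes, 7 had an IFNg-only site within 20 kb, and 8 of 53 JUNB IFNg peaks near the list were IFNg-only, 15.1% (6.75 to 27.6%), where peaks of like strength gave 21.7%. CEBPB with IFNg was at 7 of these 8 sites and IRF1 with IFNg at 1. The site at the start of Ptgs2, the cyclooxygenase gene, had a JUNB pileup of 16.9 and a CEBPB pileup of 52.9 in untreated cells, 161 with IFNg and 57.1 with IFNg+IL4. The site 0.115 kb from Ier3, an early response gene, had a JUNB pileup of 23.8 with CEBPB in all 3 states. Il27, a cytokine gene, had 2 sites of 16.9 each. Tnf, Tnfaip3, Tnfsf9 and Icam1 had 1 each, from 15.9 (Tnfaip3 and Icam1) to 32.8 (Tnf). The site counted for Tnf lay 17.8 kb from it and 0.375 kb from Nfkbil1. That counted for Icam1 lay 12.5 kb from it, inside Mrpl4.

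AP-1 and C/EBP genes had 4 of 22 with an IFNg-only site, and 4 of 21 JUNB IFNg peaks near them were IFNg-only, where peaks of like strength gave 18.5%. Junb itself had one 3.60 kb away with a pileup of 21.8, and Bach2, a repressor related to AP-1, one inside the gene with 21.8. Nfil3, a leucine zipper repressor, had one of 12.9. These 3 had no peak of another factor. The site 10.5 kb from Atf3, a stress-induced repressor, had a pileup of 22.8, with CEBPB after IFNg and both IRF1 and STAT6 after IFNg+IL4.

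Among IL4 response genes 3 of 27 had such a site, and 3 of 28 JUNB IFNg peaks were IFNg-only, 10.7% (2.27 to 28.2%), where peaks of like strength gave 23.4%. They were the site of Cd274, also near the PD-L2 gene Pdcd1lg2, one inside Bcl6, a repressor gene (16.9), and one 10.6 kb from Irf4, a transcription factor gene (15.9, 1.06 times the height needed for listing with IFNg+IL4). Of 25 macrophage identity genes 5 had one, and 6 of 52 peaks near them were IFNg-only, 11.5% (4.35 to 23.4%), where like strength gave 24.4%. These genes were Spi1, which encodes PU.1 (23.8), Mitf, with 2 (18.9 and 21.8), Adgre1, which encodes F4/80 (22.8), Mertk, a receptor for dying cells (15.9), and Tyrobp, an adaptor (27.8). The site counted for Tyrobp lay 3.71 kb from it and 0.439 kb from Nfkbid. Of 25 genes of other cell types that a culture could hold, 2 had a site: Elane, of neutrophil precursors (29.8), and Ms4a1, of B cells (22.8). The site counted for Elane lay 8.28 kb from it and 1.64 kb from Prtn3. Over all JUNB IFNg peaks, 19 of the 25 macrophage identity genes and 6 of the 25 genes of other cell types had one within 20 kb, which is the only check of the cell type that these lists allow.

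Among the largest groups, those at Tbl1xr1 and Spop were not at genes of these lists. The second group of 4 lay 84.3 to 115 kb from Tbl1xr1, a corepressor subunit gene, with JUNB pileups of 19.9, 24.8, 20.8 and 17.9. The first 3 had no peak of another factor. The site nearest to the gene had CEBPB with IFNg, IRF1 with IFNg+IL4 and STAT6 in both of its states. One group of 3 was at Spop, a ubiquitin ligase adaptor, with pileups of 16.9, 38.7 and 18.9. Of these the first had STAT6 in both states.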

How the data were processed

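The data were peak lists of 16 ChIP-seq libraries for 5 factors and of 1 input library. The submitters' processing notes name Bowtie2 (2.2.6), MACS2 (2.1.0.20150731) and the build mm10/GRCm38, and the settings were not stated. The deposited lists have the 10-column narrowPeak layout. In it, the deposited fold is a ratio over the control at the summit. The −log10 p and −log10 q of each peak were also set by the authors' MACS2 run. The deposited score repeats one of these on another scale and was not used further, and the other deposited column, the summit offset, gave the summit.

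Only chromosomes 1 to 19, X and Y were kept, without peaks that overlap an input peak. The lowest −log10 p was 2.03 in the untreated JUNB list, 5.08 in the IFNg list and 5.27 in the IFNg+IL4 list. Overlap meant at least 1 bp. Shares carry exact Clopper-Pearson 95% intervals. Shares of like strength were averaged over 5 classes of −log10 p with the make-up of the IFNg-only sites. Pileup and background were solved from each peak's p-value and fold (pseudocount 1), and the steps of the pileups gave the depth relative to the input, on the assumption that one input served these lists. IRF1 and MYC pileups were not recovered.

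Gene spans and promoters came from RefSeq tables of GRCm38.p6, in which 36 of 37 IFNg response genes matched. Chromosome 18 had no promoter entries. Motif windows on summits had been planned. They need a genome sequence, which was not used here, so promoter windows took their place after the data were seen, and the sequences were chosen from these. Sites were named by rule: the 10 strongest, all near IFNg response, inflammatory or AP-1 and C/EBP genes, those of up to 5 genes of each other list, the 5 strongest with CEBPB in IFNg only, with IRF1 in IFNg or with STAT6 in both states, and the 3 largest groups within 20 kb. The remaining cytokine signalling genes were added to these. One of the 10 strongest sites is not reported here. Members and gene lists were chosen with earlier results of these data known. The scripts were tested on simulated data and used Python 3.11.15, numpy 2.4.6, pandas 2.3.3, scipy 1.17.1 and matplotlib 3.10.9.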

Additional observations from a re-analysis of the deposited data

How the results depend on the processing

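No paired analysis was possible because each group was 1 library. The number of IFNg-only sites was 1597. It was 2075 when sharing meant 50% of both JUNB peaks, 2019 against untreated peaks of −log10 q 2 or more, 1514 with no JUNB peak within 500 bp, and 1389 for sites of −log10 q 5 or more. Alternatives chosen after seeing the data gave 1494 (enough pileup after scaling) and 1323 (as wide as the narrowest untreated peak). Of 167 values recomputed under alternatives, 124 stayed inside the 95% counting interval of the reported value (counts: within 1.5 times of it), 42 did not and 1 changed sign. For differences, that interval was approximate and ignored the class weighting of the kept share. When another factor's peak had to share 50% of both peaks, the percent of IFNg-only sites was 6.83, 25.3 and 11.4 for CEBPB (untreated, IFNg, IFNg+IL4), 12.0 and 15.3 for IRF1 (IFNg, IFNg+IL4), 18.7 and 24.0 for STAT6 (IL4, IFNg+IL4) and 2.00 for MYC (IL4, 2 h). The difference from kept sites of like strength was then -0.850 points for CEBPB with IFNg, the value that changed sign, -4.14 and -10.00 for IRF1, and -2.62 and -3.89 for STAT6. The percent of peaks listed again with IFNg+IL4 was then 12.1 for CEBPB and 78.5 for IRF1. This rule passes fewer overlaps by construction. With summits within 100 bp the percent was 36.1 and 13.02 for CEBPB (IFNg, IFNg+IL4), 14.7 and 21.4 for IRF1, 23.8 and 29.1 for STAT6 and 2.76 for MYC, and the STAT6 differences were -9.07 and -12.4. Against untreated JUNB peaks of −log10 q 2 or more, applied to overlaps after seeing the data, it was 13.3, 46.7 and 18.3 for CEBPB, 14.6 for IRF1 with IFNg, 35.1 and 38.8 for STAT6, 6.54 for MYC and 39.7 for CEBPB listed again. The cause was not tested. IFNg response genes with a site numbered 9 at 5 kb, and 9.61% of sites lay within 2 kb of a start. The planned motif alternatives on summit windows were not run, since they need a genome sequence. Reads at unlisted sites were not analysed here, so a site just below a list's threshold counts as absent from it.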
